A study of Arabidopsis thaliana with 9 samples.

Results

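DFR (AT5G42800) and UGT78D2 (AT5G17050) are the members described here. They are 2 genes of flavonoid synthesis in Arabidopsis thaliana, each read by 1 probe set of ATH1 microarrays from Affymetrix, which hold 1 labelled RNA each and read a transcript with a set of short probes. Their probe sets were taken by annotation, as those whose single annotated gene is DFR (probe set 249215_at) or UGT78D2 (246468_at). There were 22746 tested probe sets, and 13356 genes had a probe set of their own. The 2 genes were chosen with earlier results of these data known, so their p-values are those of selected genes. Both identifiers end in _at, the ending given to probe sets designed against 1 transcript, and no further probe set was annotated to either gene alone.

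The study compared whole plants of 2 mutant lines, line1135 and line774, with a wild-type control, labelled WT-control, on 3 arrays per group and 9 in all. Plants were 17 days old, at growth stage 1.04, and had been grown at 21 °C with 16 h of light and 8 h of darkness on plates of 50 seeds with iron citrate and sucrose in the medium. The series title calls the mutants epigenetic. A T-DNA knock-out label stands on all 9 samples, control included, and the mutated gene of neither line is given, so a targeted gene could not be checked. The 3 samples of a group carry 1 source name, so each line stands for 1 source, and nothing says that they came from separate cultures. Any p-value here therefore reflects the variation among arrays of the same group, pooled over the 3 groups and moderated by the spread of the other probe sets. An array of any group thus bears on every comparison. That variation could be technical. In bulk RNA of whole plants, fewer cells expressing a gene and less of its RNA per cell cannot be told apart.

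As background, flavonoids are made from phenylpropanoids by a chain of enzymes that splits into flavonols, anthocyanins and the proanthocyanidins of the seed coat. DFR, dihydroflavonol 4-reductase, acts late: it turns dihydroflavonols into leucoanthocyanidins, from which anthocyanins and proanthocyanidins are made, and loss of the enzyme gives transparent testa seeds. UGT78D2 is a UDP-glucose-dependent transferase that puts glucose on the 3-O position of flavonols and anthocyanidins. DFR thus belongs to the anthocyanin and proanthocyanidin side, while UGT78D2 serves both flavonols and anthocyanins.

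Values are the deposited linear signals, which the authors had scaled to a common mean per array. Array medians lay between 35.3 and 37.4, and rank correlations between arrays of a group between 0.964 and 0.975. The highest of 27 Bacillus control probe sets on an array served as its background and lay between 5.36 and 13.4. Each difference is that of log2(signal + 16), given with its standard error (SE), from a limma model fitted to all 9 arrays. A call is an adjusted p under 0.05 over all probe sets, with no minimum fold. The offset of 16 understates changes of dim transcripts, and DFR is one. The number of arrays limits the precision of every value. Of the tissue markers, PYK10, a root beta-glucosidase, averaged 3049 ± 370.2 in line1135, 2842 ± 534.5 in line774 and 3296 ± 261.9 in WT-control (SD, n = 3). The leaf gene RCA, rubisco activase, averaged 6185 ± 402 in line1135, 5900 ± 138.5 in line774 and 5684 ± 664.5 in WT-control (SD, n = 3). Root and leaf RNA were thus present in all groups, as the whole-plant label says. Of 7 listed seed markers, 0 were named among the probe sets used here.

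DFR differed between the 2 mutant lines. Its signal was 18.4, 24.7 and 18.5 on the line1135 arrays, against 36.3, 45.1 and 49.6 on the line774 arrays. The groups did not overlap, and the brightest line1135 array stayed below the dimmest line774 array. WT-control arrays had 20.2, 22.7 and 28.9, which overlapped with line1135 and lay below all line774 arrays. All 9 values were above the background of their array.

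**Figure D1:**
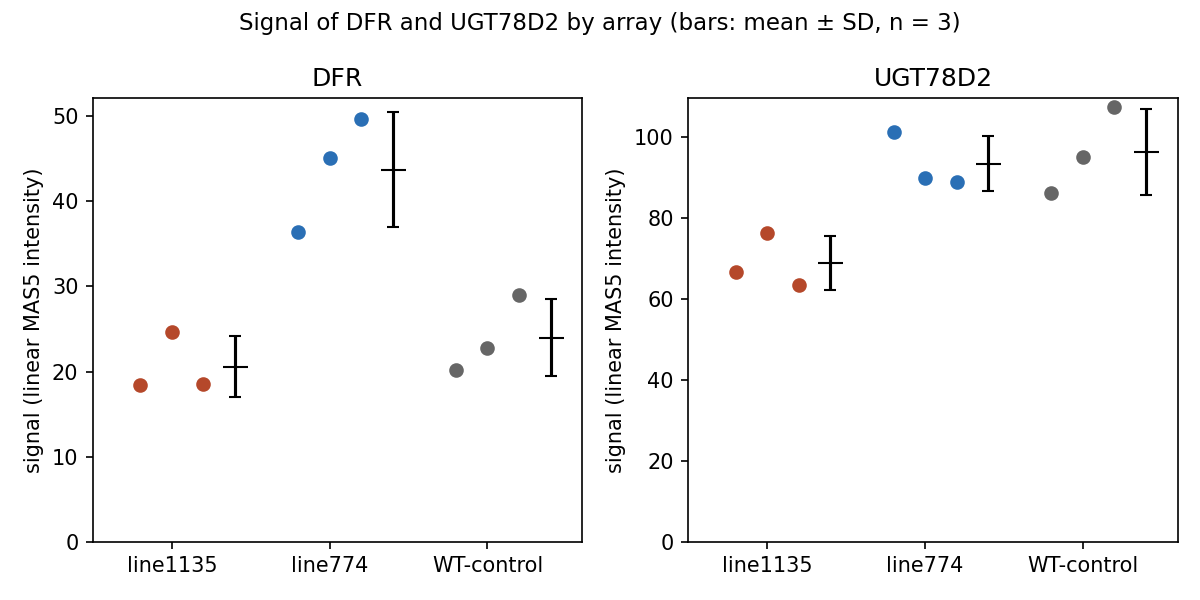
Linear signal of DFR (left) and UGT78D2 (right) on each array of line1135, line774 and WT-control, with the mean ± SD (n = 3) beside the points. DFR is highest in line774 (43.7 on average), and UGT78D2 is lowest in line1135 (68.9 on average).

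The direct comparison gave a DFR difference of -0.71 ± 0.15 (SE) for line1135 minus line774, with a 95% interval of -1.03 to -0.38 and limma's adjusted p = 0.0377. DFR averaged 20.6 ± 3.6 in line1135 and 43.7 ± 6.76 in line774 (SD, n = 3). On the linear scale the line1135 mean was 0.470 of the line774 mean, so DFR fell in line1135 relative to line774. In this comparison 2.00% of all probe sets were called in either direction and 0.870% were called lower. Non-overlapping arrays with line1135 lower were found for 9.97% of all probe sets. The size of the log2 difference rests on the offset: it was -1.05 with an offset of 1 (adjusted p = 0.0502) and -0.35 with an offset of 64. The call was lost without WT-control replicate 1 (adjusted p = 0.0513), WT-control replicate 2 (0.0643), line774 replicate 2 (0.126), line774 replicate 3 (0.11), line1135 replicate 1 (0.115) or line1135 replicate 3 (0.132), and with only the 2 lines in the fit (0.0842), with the difference between -0.80 and -0.63 over all arrays left out in turn.

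Set against the control, DFR rose in line774 and was not called in line1135. In line774 the difference from WT-control was 0.58 ± 0.15 (95% interval 0.25 to 0.91, limma's adjusted p = 0.0269), with an average signal of 43.7 ± 6.76 in line774 and 23.9 ± 4.52 in WT-control (SD, n = 3). The line774 mean was 1.82 times the WT-control mean on the linear scale. Of all probe sets, 12.6% were called in line774 against WT-control, with 6.60% of all probe sets called higher, so a call there was common. Arrays that did not overlap, with line774 higher, were found for 17.0% of all probe sets. The DFR call was lost without WT-control replicate 1 (adjusted p = 0.103), WT-control replicate 2 (0.0793), line774 replicate 2 (0.0821) or line774 replicate 3 (0.0909).

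In line1135 the DFR difference from WT-control was -0.13 ± 0.15, with a 95% interval of -0.45 to 0.20 (limma's adjusted p = 0.656), at averages of 20.6 ± 3.6 in line1135 and 23.9 ± 4.52 in WT-control (SD, n = 3). The order of DFR levels was line774, then WT-control, then line1135, and the last 2 did not differ beyond their spread. Both lines were compared with the same 3 control arrays.

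UGT78D2, above background on every array, showed another order. Its signal was 66.8, 76.5 and 63.6 on the line1135 arrays, against 101.3, 90.1 and 89.0 on the line774 arrays. WT-control arrays had 86.3, 95.1 and 107.5. All line1135 arrays lay below all arrays of the other groups, and line774 and WT-control overlapped.

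UGT78D2 fell in line1135 relative to WT-control, by a difference of -0.40 ± 0.11 (95% interval -0.64 to -0.17, limma's adjusted p = 0.0296). It averaged 68.9 ± 6.7 in line1135 and 96.3 ± 10.6 in WT-control (SD, n = 3), and the line1135 mean was 0.716 of the WT-control mean on the linear scale. In this comparison 13.6% of all probe sets were called, 6.86% as lower, and non-overlapping arrays with line1135 lower were found for 14.4%. The call was lost without WT-control replicate 2 (adjusted p = 0.0731), WT-control replicate 3 (0.106), line1135 replicate 1 (0.0825) or line1135 replicate 3 (0.0945), and with only the 2 groups in the fit (0.053). The difference ranged from -0.47 to -0.27 over every alternative tried.

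Between the mutant lines, UGT78D2 was not called. The difference of line1135 minus line774 was -0.37 ± 0.11 with a 95% interval of -0.60 to -0.13 before adjustment (limma's adjusted p = 0.123), at averages of 68.9 ± 6.7 in line1135 and 93.5 ± 6.81 in line774 (SD, n = 3). The arrays of the 2 lines did not overlap, but 9.97% of all probe sets showed this too. Its adjusted p stayed above the threshold in every alternative, between 0.078 and 0.29. In line774 against WT-control the difference was -0.03 ± 0.11 (95% interval -0.27 to 0.20, limma's adjusted p = 0.896), at averages of 93.5 ± 6.81 in line774 and 96.3 ± 10.6 in WT-control. The order of UGT78D2 levels was WT-control, line774 and line1135, and the first 2 did not differ beyond their spread.

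The members thus shared a negative difference between the lines, called for DFR and not for UGT78D2, and were called against the control in different lines. Whether the line effects differ between the 2 genes was not tested. Over the 9 arrays, log2(signal + 16) values of DFR and UGT78D2 had a Pearson correlation of 0.548 and a Spearman correlation of 0.617, given as a description, since arrays of a group share their source. Within groups, over deviations from the group means, the Pearson correlation was 0.417. On the uncentred values, the Pearson correlation was 0.777 without line774 replicates 2 and 3, the 2 arrays with DFR values farthest from the median. Both were picked by DFR's own values and come from line774, where DFR was highest. The higher value is therefore no sign of closer agreement between the genes. By the Pearson correlation of 0.548 over all 9 arrays, UGT78D2 ranked 562 of 5159 probe sets in likeness to DFR.

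To place the members in their pathway, 49 genes of phenylpropanoid and flavonoid synthesis, transport and regulation were listed. Of these, 10 were measured by a probe set with 1 annotated gene, the 2 members included, and 1 further gene shared its probe set with another gene and was not used. The annotation named no gene for 8730 of the 22746 tested probe sets. Genes counted here and below as not measured may thus be on the arrays without a name. None of the 19 listed regulators, 8 phenylpropanoid enzymes or 3 transport genes was among the 10, so nothing is said here of those steps. The measured genes were 1 of 5 early enzymes, 3 of 5 of the flavonol branch, 5 of 7 late anthocyanin enzymes (both members among them) and 1 of 2 of the proanthocyanidin branch. AT1G06000, listed in the flavonol branch, and AT4G14090, listed as a late anthocyanin enzyme, are given by their locus, the only name in the gene annotation used here.

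**Figure D2:**
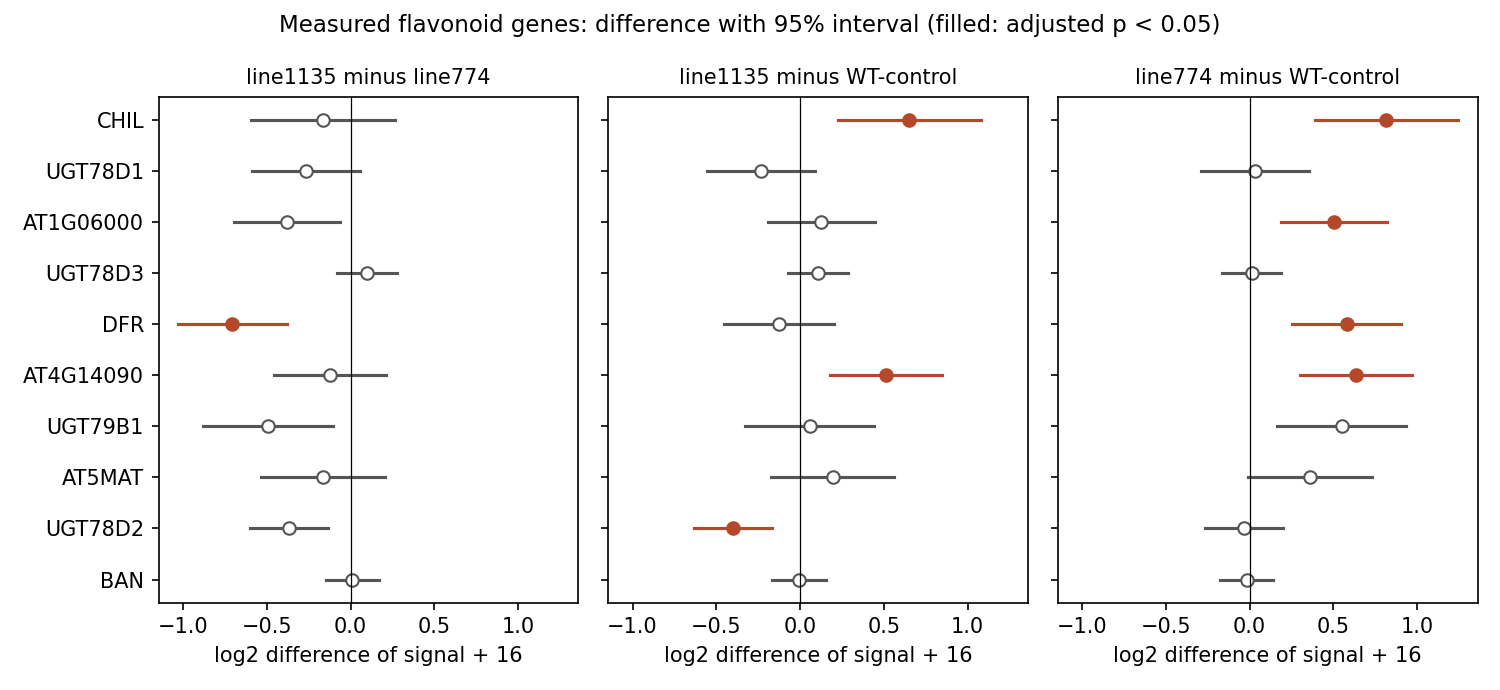
Log2 difference of signal + 16 with its 95% interval for the 10 measured flavonoid genes in each comparison; filled points passed an adjusted p of 0.05. DFR alone is filled for line1135 minus line774 (-0.71), and UGT78D2 is the filled point below 0 for line1135 minus WT-control (-0.40).

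For line1135 minus line774, DFR was the 1 gene of the 10 called, as lower, beside 2.00% of all probe sets called, and 0 were called higher, as 1.13% of all probe sets were. The difference was negative for 8 of the 10, with a median of -0.21, and for 6 of the 8 without DFR and UGT78D2, with a median of -0.16 and 0 called, where the median over all probe sets was -0.0023 and 50.6% of them were negative. The largest sizes after DFR were those of UGT79B1, an anthocyanin glycosyltransferase (-0.49 ± 0.18, limma's adjusted p = 0.216), AT1G06000 (-0.38 ± 0.14, adjusted p = 0.247) and UGT78D2. UGT78D1, a flavonol 3-O-rhamnosyltransferase of the same family as UGT78D2, had a difference of -0.26 ± 0.15 (adjusted p = 0.445). With the members, these made 5 of the 10 genes whose line1135 arrays all lay below the line774 arrays, as did those of 9.97% of all probe sets.

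AT1G06000 had 45.9, 40.4 and 65.2 on the line1135 arrays, against 69.6, 72.1 and 66.6 on the line774 arrays and 39.7, 43.3 and 49.8 on the WT-control arrays. Its line1135 arrays overlapped with WT-control, while all line774 arrays were above both. UGT79B1, the dimmest of the 5, had 8.17, 8.20 and 1.07 on the line1135 arrays, against 16.3, 11.3 and 15.6 on the line774 arrays and 6.77, 0.70 and 7.36 on the WT-control arrays. The lowest UGT79B1 value of line1135 and that of WT-control were below background. UGT78D1 had 32.6, 32.9 and 39.2 in line1135, 56.1, 40.2 and 40.3 in line774, and 37.2, 43.0 and 51.9 in WT-control. Its line1135 arrays and its line774 arrays each overlapped with WT-control.

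For line774 minus WT-control, 4 of the 10 rose, where 6.60% of all probe sets were called higher, and 0 fell, where 6.01% were called lower. Besides DFR they were CHIL, a chalcone isomerase-like protein that promotes flavonoid production (0.82 ± 0.19, limma's adjusted p = 0.0194), AT4G14090 (0.64 ± 0.15, adjusted p = 0.0193) and AT1G06000 (0.51 ± 0.14, adjusted p = 0.0424). The median of the 10 was 0.43, against 0.02 over all probe sets. CHIL had 27.6, 22.5 and 16.5 on the line774 arrays, against 12.2, 3.63 and 2.05 on the WT-control arrays, of which 1 was above background. AT4G14090 had 17.2, 13.1 and 18.9 on the line774 arrays, against 7.83, 5.34 and 1.64 on the WT-control arrays, of which again 1 was above background. Between 0 and 5 of the 10 passed when 1 array was left out. The count was 0 without WT-control replicate 2, 2 without WT-control replicate 1, and 1 without WT-control replicate 3 or any 1 of the line774 arrays, and it was 2 after quantile normalization.

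For line1135 minus WT-control, 3 of the 10 were called, 2 higher (6.74% of all probe sets) and UGT78D2 lower. CHIL was higher by 0.65 ± 0.19 (limma's adjusted p = 0.0491) and AT4G14090 by 0.51 ± 0.15 (adjusted p = 0.0477), at signals of 20.1, 21.7 and 12.5 for CHIL and 16.6, 15.0 and 9.76 for AT4G14090 on the line1135 arrays, the lowest of each being at or below background. Between 0 and 2 of the 10 passed when 1 array was left out: 0 without WT-control replicate 2, WT-control replicate 3 or line1135 replicate 1, and 1 without any 1 of the line774 arrays or line1135 replicate 2. The median was 0.08, against 0.02 over all probe sets.

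AT5MAT, an anthocyanin malonyltransferase, was called in 0 of the 3 comparisons, with differences of -0.16 ± 0.17 between the lines (limma's adjusted p = 0.717), 0.36 ± 0.17 in line774 against WT-control (adjusted p = 0.214) and 0.19 ± 0.17 in line1135 against WT-control (adjusted p = 0.528). BAN, the anthocyanidin reductase of proanthocyanidin synthesis, stayed at or below background on all 9 arrays, with a highest signal of 1.42. So did UGT78D3, a flavonol 3-O-arabinosyltransferase, with a highest signal of 3.07, although its sequence relative UGT78D2 was above background on the same arrays.

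Markers of root tissue were read beside these results. Of 7 listed root markers 3 were measured, and their summed signal ranged from 2721 to 3473 in line1135, 2370 to 3441 in line774 and 3058 to 3594 in WT-control, almost all of it from PYK10. EXPA18, a root hair expansin, had a difference of -0.57 ± 0.20 for line1135 minus line774 (limma's adjusted p = 0.209), and EXPA7, another, of -0.32 ± 0.16 (adjusted p = 0.397), both negative as for DFR, while PYK10 was positive at 0.11 ± 0.14 (adjusted p = 0.778). All line1135 arrays of EXPA18 lay below its line774 arrays, as for 9.97% of all probe sets, while those of EXPA7 and PYK10 overlapped. For line774 minus WT-control, where DFR rose, EXPA7 had a difference of 0.49 ± 0.16 (limma's adjusted p = 0.0808). Its arrays did not overlap, as for 17.0% of all probe sets with line774 higher. In that comparison EXPA18 had a difference of 0.20 ± 0.20 (adjusted p = 0.624) and PYK10 of -0.23 ± 0.14 (adjusted p = 0.354). Both expansins were dim: line1135 replicate 3 was below background for EXPA7 (9.90) and EXPA18 (10.3), and WT-control replicate 1 for EXPA7 (4.07). Of 8 listed leaf markers RCA was the 1 measured, with 5807 to 6608 in line1135, 5740 to 5984 in line774 and 5187 to 6439 in WT-control. The part of tissue composition in the DFR and UGT78D2 differences was not tested.

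The probe sets most like each member were ranked by the Pearson correlation of log2 signal + 16 over the 9 arrays, among probe sets with 1 named gene and a mean signal of at least 50. For DFR the 5 highest were AT1G59960 (0.976), AT2G46620 (0.962), AT2G29995 (0.953), AT5G05960 (0.951) and AT4G02940 (0.929). AT1G59960 had 112.8, 135.1 and 107.9 on the line1135 arrays, 148.7, 173.3 and 185.7 on the line774 arrays, and 110.8, 114.7 and 126.2 on the WT-control arrays. As for DFR, all line774 arrays were above all others, and line1135 and WT-control overlapped. Its correlation with DFR was 0.956 over deviations from the group means, while those of the other 4 lay between 0.688 and 0.834.

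For UGT78D2 the 5 highest were AT2G29290 (0.956), AT3G51250 (0.932), Z-ISO, a carotenoid isomerase (0.924), TRM21 (0.923) and AT4G22490 (0.908). AT2G29290 had 46.2, 69.2 and 33.3 on the line1135 arrays, 145.0, 96.5 and 154.4 on the line774 arrays, and 134.1, 141.9 and 214.2 on the WT-control arrays, so that the line1135 arrays were again the low ones. AT4G22490 showed the same order with a wider gap, at 46.2, 49.1 and 32.0 in line1135, 380.0, 302.1 and 191.2 in line774, and 340.0, 331.5 and 296.8 in WT-control. Its correlation with UGT78D2 over deviations from the group means was 0.397, and those of the other 4 lay between 0.763 and 0.888. These genes were picked for their likeness on these arrays, so their differences between groups are a description.

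**Figure D3:**
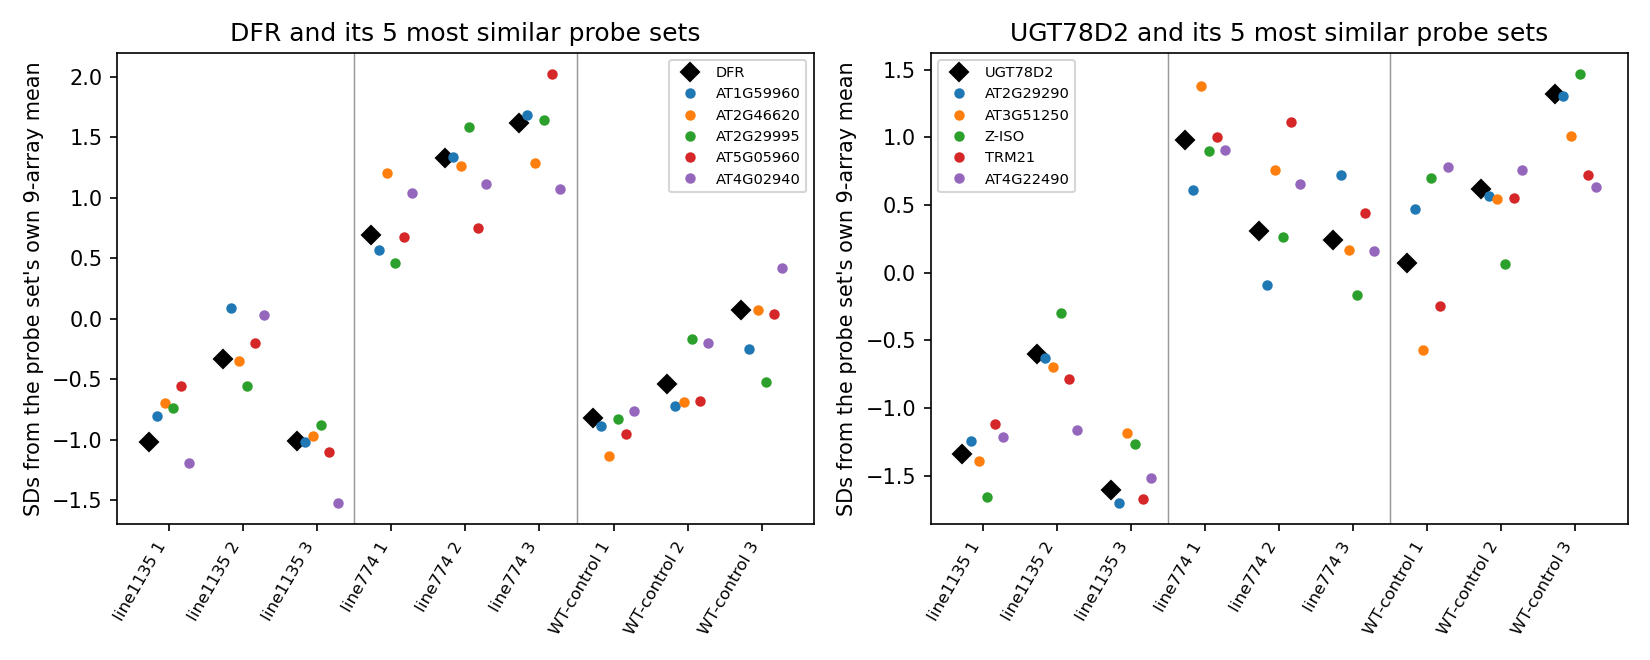
Log2 signal + 16 of DFR (left) and UGT78D2 (right), as diamonds, and of the 5 probe sets most like each, as circles, on each array of line1135, line774 and WT-control, in SDs from the probe set's own mean over 9 arrays. On the left the line774 arrays are the high ones, and on the right the line1135 arrays are the low ones.

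The difference between the lines kept its sign for both members under every alternative tried.

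**Figure D4:**
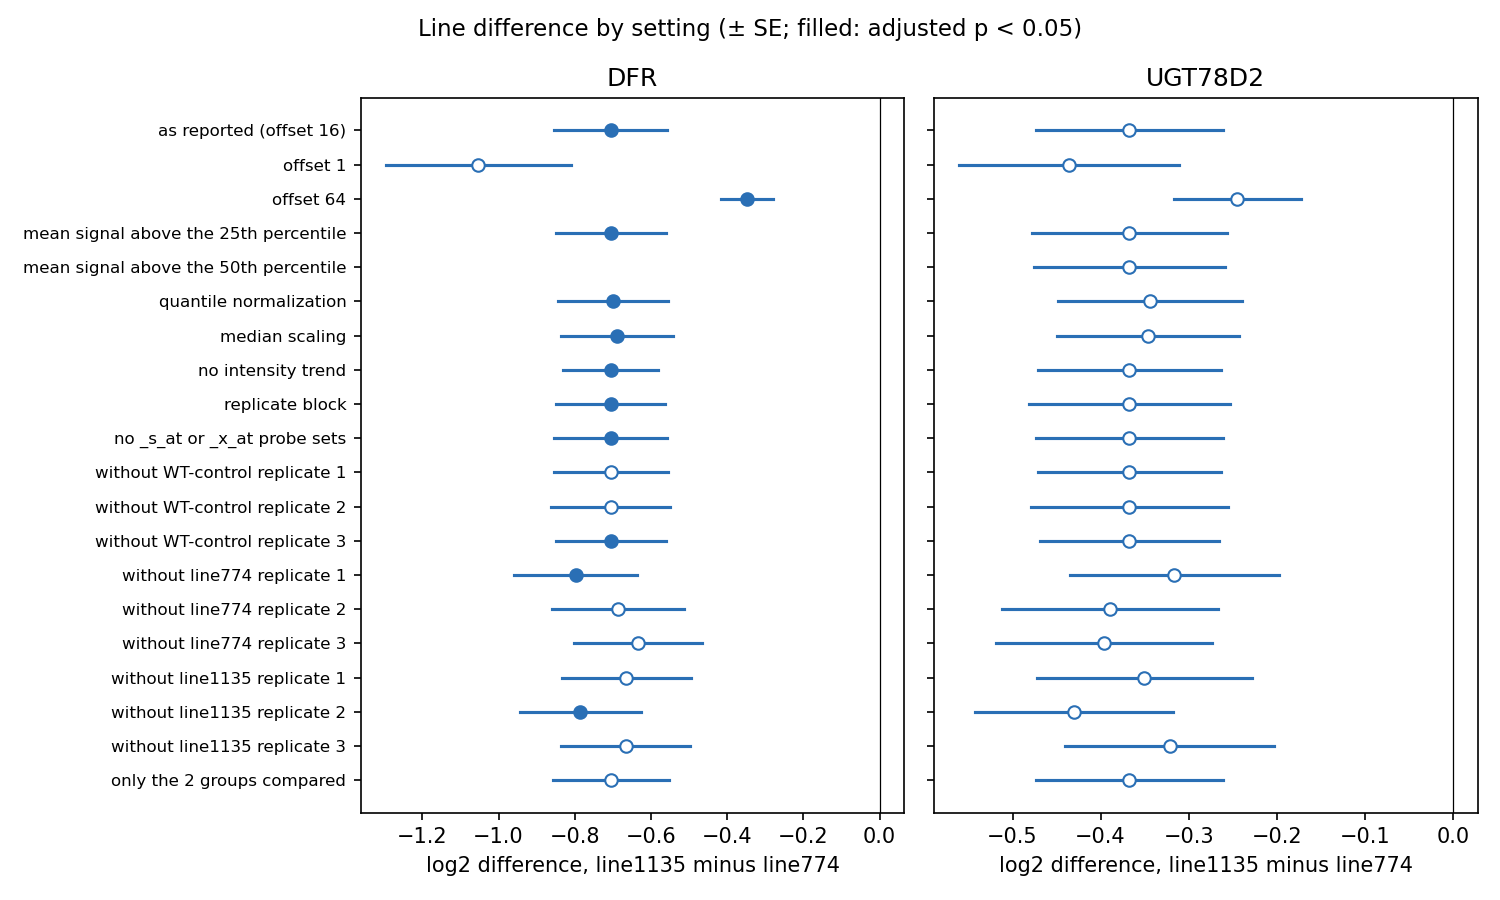
Log2 difference of line1135 minus line774 (± SE) for DFR (left) and UGT78D2 (right) under each setting; filled points passed an adjusted p of 0.05, and DFR has no point where the filter on mean signal removed it. DFR ran from -1.05 to -0.35 and UGT78D2 from -0.44 to -0.24.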

How the data were processed

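The files hold 1 value per probe set and array, for 9 samples grouped by title. Per the submitters' processing notes, the deposited intensity values were made with MAS5 and GCOS (versions not given in the sources used here); their 2% trimmed mean was near 100 on every array. From 22810 probe sets, 64 controls were left out, and all 22746 others were tested, dim ones included, on log2(signal + 16), with limma 3.58.1 in R 4.3.3 (1 mean per group, all 9 arrays, 6 residual degrees of freedom, eBayes with an intensity trend, Benjamini-Hochberg over all probe sets). Genes came from the platform annotation, matched by Entrez ID to the RefSeq table of TAIR10.1: 13513 probe sets had 1 gene, 503 several and 8730 none named. All 49 listed loci were in that table. Named genes were the members, every measured listed gene and the 5 most similar probe sets per member. Members, lists and the call rule were chosen with earlier results of these data known. Replicate numbers were not used to pair the arrays in the main fit. The fit was tested on simulated data, with changes placed only in probe sets brighter in WT-control than either member. That test does not cover the members' own intensity. Alternatives were offsets, filters, normalizations, no trend, 2-group fits, a replicate block and each array left out. Figures used matplotlib 3.10.9.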

Additional observations from a re-analysis of the deposited data

Results flagged for a closer look

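DFR differed between the effects of the 2 lines against the shared control. The direct test of that difference, line1135 minus line774, gave -0.71 ± 0.15 on the log2 scale (limma's adjusted p = 0.0377). All 3 line1135 arrays were below all 3 line774 arrays, as for 9.97% of all probe sets, and 2.00% were called in this comparison. The call held in 3 of 9 fits with 1 array left out, and was lost with only the 2 lines fitted (limma's adjusted p = 0.0842). Groups of 3 arrays are too small for a test of single outlying arrays, and 0 such tests were made.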

How the results depend on the processing

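The direction held for DFR and UGT78D2 in all 3 comparisons and all alternatives, except UGT78D2 in line774 against WT-control, at 0.036 without WT-control replicate 3. For line1135 minus line774, DFR lost its call with an offset of 1 (-1.05), with only the 2 groups fitted, with a 2-fold minimum or with adjusted p under 0.01 (each -0.71), and was removed by the filter at the 50th percentile. DFR in line774 against WT-control (0.58) and UGT78D2 in line1135 against WT-control (-0.40) lost their calls with a 2-fold minimum or adjusted p under 0.01, the second also with only 2 groups fitted. Without single arrays, DFR ran from -0.80 to -0.63 between the lines, 0.51 to 0.67 in line774 and -0.21 to -0.04 in line1135; UGT78D2 ran from -0.43 to -0.32, -0.099 to 0.036 and -0.47 to -0.33. The fit with the replicate number as a block (replicate block) gave adjusted p = 0.0407 for DFR between the lines, 0.0288 in line774, and 0.0475 for UGT78D2 in line1135. Same-numbered arrays of different groups had deviations correlated at 0.0274 to 0.0894, all positive but small. Differently numbered arrays had correlations from -0.0998 to 0.0568. Whether the numbers pair the arrays weakly was not tested. With the block, 515 probe sets were called between the lines against 454 without it.

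The count of flavonoid genes called between the lines was 1, and 0 with an offset of 1, the 50th percentile filter, 2 groups fitted, a 2-fold minimum or adjusted p under 0.01 (0 to 1 without single arrays). In line774 it was 4, with 1 after the 50th percentile filter, 2 after quantile normalization and 0 with a 2-fold minimum or adjusted p under 0.01 (0 to 5 without single arrays). In line1135 it was 3, with 1 after that filter, quantile normalization or median scaling and 0 with 2 groups fitted, a 2-fold minimum or adjusted p under 0.01 (0 to 2 without single arrays). The correlation of DFR with UGT78D2 ran from 0.433 to 0.624 without single arrays. Fitting only 2 groups called 254 probe sets between the lines.

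Signs of small, uncalled differences turned as follows. Between the lines, without single arrays, BAN ran from -0.012 to 0.027 and AT5G17040 from -0.24 to 0.12. In line774, UGT78D1 was -0.0014 with median scaling and -0.088 to 0.12 without single arrays, AT3G51250 ran from -0.00043 to 0.087 and AT4G22490 from -0.40 to 0.069, and AT5G17070 was -0.0086 with quantile normalization, -0.018 with median scaling and -0.071 to 0.10 without single arrays. In line1135, AT1G06000 ran from -0.026 to 0.24, BAN from -0.031 to 0.0096, AT5G05960 from -0.081 to 0.054, UGT79B1 from -0.10 to 0.22 (-0.0036 with quantile normalization), AT1G59960 from -0.076 to 0.068 (-0.0068 with median scaling) and AT2G46620 from -0.053 to 0.036 (0.015 with quantile normalization).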

Other observations

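In the RefSeq gene order, AT5G17040 and then UGT78D3 are the neighbours of UGT78D2 on its lower-numbered side. The loci up to 2 steps from each member were looked at after the members' values were known. AT5G17040 had 3.42, 5.03 and 1.73 on the line1135 arrays, against 12.4, 2.42 and 1.12 on the line774 arrays and 0.40, 1.36 and 1.52 on the WT-control arrays, and only 1 of the 9 values, a line774 one, was above background. AT5G17070, on the other side, had a difference of -0.17 ± 0.14 between the lines (limma's adjusted p = 0.629). U2AF35B, a splicing factor subunit and the 1 measured neighbour of DFR, had 77.1, 81.5 and 80.0 in line1135, 71.9, 76.2 and 72.5 in line774, and 87.8, 84.9 and 95.5 in WT-control, with a difference of 0.09 ± 0.09 between the lines (adjusted p = 0.687), opposite in sign to that of DFR. None of these measured neighbours was called in any of the 3 comparisons.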
